A study of Mus musculus with 8 samples.

Results

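The *Id* genes encode the inhibitors of DNA binding, and the family has 4 members, *Id1*, *Id2*, *Id3* and *Id4*. Their values were read in 8 single endocardium cells of the mouse heart by taking every non-control probe that the array design names for a member. This gave 4 probes, 1 for each gene, among 55295 probes usable on all arrays. The members were taken by gene name, with earlier results of these data known.

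Each array held the amplified cDNA of 1 cell from the heart tube at E8.5 with 9 somites. The 4 wild-type (WT) cells had the genotype *Mesp1* +/+ with *Sox17* flox/flox, and the 4 *Sox17* KO cells had *Mesp1* Cre/+ with *Sox17* flox/flox, so that both groups carried the floxed alleles and the KO cells also carried 1 Cre allele in place of *Mesp1*. Cre under *Mesp1* acts in nascent mesoderm, from which cardiac cells other than the endocardium also descend. The labels do not name the embryo of any cell. A genotype was therefore treated as 1 sample, and differences of mean log2 signals (KO minus WT) are given beside the SD between cells of a genotype, with no p-value. All signals below were scaled between arrays, set to at least 50 (5.64 on the log2 scale, called the floor) and taken as log2. "Detected" means that the scanner software marked the spot as well above background.

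The depth of an array was its number of detected probes, from 11370 in WT cell 1 to 18175 in WT cell 4. WT cell 1 was also the cell in which common probes were most often missing. Of the probes detected in the other 7 cells it lacked 10.4%, against 6.54% in KO cell 2 and 0.171% to 2.81% in the remaining cells, and its array alone was marked for evaluation by the scanner software. All arrays lay on 1 slide, with the WT cells in a column of their own, and slide position therefore cannot be told apart from genotype. The probes for *Sox17*, the deleted gene, were not detected in any cell, with scaled signals from 1.09 to 6.18 and every one under the floor, and gave no check of the genotypes. Endocardial or endothelial markers were detected in every cell, between 7 and 10 of 10 in WT and between 6 and 9 in KO cells, with a summed signal of 10037 to 35685 and 7045 to 79403. The cells also carried signal of cardiomyocyte markers, of which between 4 and 8 of 9 were detected in WT and between 3 and 7 in KO cells, with a summed signal of 370.3 to 46258 and 1010 to 48736. *Actc1*, cardiac actin, was detected in all 8 cells, with a difference of 2.67 (6.38-fold) beside an SD between cells of 2.79. Of the 9 cardiomyocyte markers, 4 had a higher and 4 a lower mean in KO cells. *Myl2* and *Myl4*, cardiac myosin light chains, reached 13.57 and 14.03 in WT cell 2, and *Tnnt2*, cardiac troponin T, reached 13.26 in KO cell 4, while *Myh6*, a cardiac myosin heavy chain, did not exceed the floor in any cell. Of the endothelial markers only *Emcn* was past 5-fold, with a difference of 4.07 (16.8-fold) and an SD of 2.58. Of the 10 endothelial markers, 5 had a higher and 5 a lower mean in KO cells, with a median difference of -0.06. The lowest was *Tek*, with a difference of -2.16 and an SD of 1.88. Of the other lists, smooth muscle had 2 of 3 markers detected in any cell, blood 1 of 5 (*Hbb-bh1*, under the floor) and endoderm 1 of 5 (*Cldn6*, under the floor). The smooth muscle markers *Acta2* and *Tagln* were detected in all 8 cells. *Acta2* reached 13.80 in WT cell 2 and 12.86 in KO cell 4, and was at most 6.15 in the other cells. The part of these differences between cells in the values below was not tested.

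Id proteins hold a helix-loop-helix domain but lack the basic region that contacts DNA. They pair with E proteins, the common partners of tissue-specific basic helix-loop-helix (bHLH) factors, and so keep these factors from their E-box sites. In many cells, endothelial cells among them, *Id1*, *Id2* and *Id3* are direct targets of BMP signaling through Smad proteins, and *Id1* and *Id3* are known for their roles in vessels and in the endocardium of the embryo.

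The probes that carried the measurements had 60 bases. Their last 30 bases are shown because each gene rested on a single probe and because a probe can report a transcript only where its own bases are copied. The labelled material came from cDNA primed at the poly(A) tail. The capitals mark ATTAAA, a common variant of the polyadenylation signal, the only match to AATAAA or ATTAAA in the 4 probes.
Id1: ttttttgttgttATTAAAcaaacactttag
Id2: gttttcttgtatagtggcagaaataaccta
Id3: cactccggaacttgtgatctccaaggacaa
Id4: ccttagaggctacattgtgacaagggaact
In mm9, the build of the array design, the probe of *Id1* lay on the plus strand at chr2:152563083-152563142, that of *Id2* on the minus strand at chr12:25778904-25778963 and that of *Id4* on the plus strand at chr13:48358668-48358727. The design gives no position for the probe of *Id3*. No annotation of mm9 was used here, so that the exon or UTR under each probe is not stated. The probe of *Id1* was the poorest in G and C, at 28.3%, against 35.0% for *Id2*, 43.3% for *Id4* and 55.0% for *Id3*. Over the 6 pairs of probes the longest run of bases in common was between 4 and 7, so that no pair shared a stretch of its sequence. A level is therefore compared only between cells for 1 probe, never between genes.

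The 4 genes had different patterns of detection. *Id3* was detected in all 8 cells and *Id1* in 7, *Id2* in 5 and *Id4* in none. Among all genes, taken by 1 probe each, 6139 were detected in all 8 cells, 1429 in 7, 1275 in 5 and 16418 in none. *Id1* had the only difference of at least 5-fold between genotypes, the fold at which the study called genes, and this difference rested on WT cell 1.

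*Id1*, the member best known as a BMP target in endothelial cells, was bright in every cell but 1. Its log2 signal was 5.64 (the floor), 11.79, 11.37 and 11.63 in WT and 12.80, 14.44, 11.84 and 11.67 in KO cells, each in the order of cells 1 to 4, as throughout. In WT cell 1 it was not detected, with a signal as deposited of 2.48, while the signals as deposited in the other 7 cells ran from 2001 to 12071. Of the KO cells, 1 and 2 lay above every WT cell, cell 3 lay just above the highest WT cell, and cell 4 lay between WT cells, so that the genotypes overlapped. The mean log2 signal was 10.11 ± 2.98 (SD, n = 4) in WT and 12.69 ± 1.27 (SD, n = 4) in KO cells. The difference was 2.58 on the log2 scale, or 5.98-fold, beside an SD between cells of 2.29. Of the 26833 probes detected in at least 1 cell, 2.83% had KO means 5-fold or more above WT, 2.85% had them 5-fold or more below, and 5.68% had either. The split of 760 higher and 765 lower probes was 605 and 938 with the 75th percentile, 582 and 883 with the floor set before scaling, and 594 and 878 with all probes used for the percentile. Without WT cell 1 the difference was 1.09, and without KO cell 2, the brightest cell, it was 2.0, both under the 5-fold line of 2.32. With only the cells above the floor, the mean was 11.60 ± 0.21 (SD, n = 3) in WT and 12.69 ± 1.27 (SD, n = 4) in KO cells. The 5-fold call also ended under 7 of the 8 other ways of processing, which gave 2.03 to 2.31, and the difference was 3.16 with a floor of 10. The part of the low depth of WT cell 1 in its missing *Id1* signal was not tested.

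*Id3*, which has much the same expression and targets as *Id1* in vessels and can stand in for it there, was the member measured in every cell. Its log2 signal was 11.71, 12.06, 11.21 and 9.61 in WT and 12.93, 12.49, 11.19 and 11.10 in KO cells. KO cells 1 and 2 were the brightest, WT cell 4 was the dimmest, and the other cells of both genotypes lay among each other. The mean was 11.15 ± 1.08 (SD, n = 4) in WT and 11.93 ± 0.92 (SD, n = 4) in KO cells. The difference of 0.78 (1.71-fold) was smaller than the SD between cells of 1.01, and it was 0.27 without WT cell 4. WT cell 1, where *Id1* was missing, held *Id3* within the range of the other cells.

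The range of *Id3* over the cells, 3.32 on the log2 scale, was wider than that of 69.3% of the 7570 probes detected in all cells, whose median range was 2.15. Its SD between cells of 1.01 was above that of 65.3% of these probes (median 0.72), and its difference between genotypes was larger in size than that of 69.9% (median 0.39). *Id3* thus lay in the upper part of these probes on each measure without standing apart from them.

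*Id2*, known in lymphoid and neural cells and in the cardiac conduction system, was dim and patchy. Its log2 signal was 7.52, 6.78, 5.64 and 5.64 in WT and 7.75, 5.64, 8.79 and 5.64 in KO cells. It was above the floor in 2 cells of each genotype, and in WT cell 4 it was detected with a scaled signal of 35.9, under the floor. The mean was 6.4 ± 0.92 (SD, n = 4) in WT and 6.96 ± 1.58 (SD, n = 4) in KO cells, and the difference of 0.56 was less than the SD between cells of 1.29. Without KO cell 3, the brightest, the difference was -0.05. The cell that lacked *Id1*, WT cell 1, was the brighter of the 2 WT cells with *Id2* above the floor.

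*Id4*, known best from neural progenitors and the mammary gland, was not detected in any of the 8 cells. Its scaled signals ran from 1.15 to 7.77, and the signals as deposited from 1.64 to 3.30, all under the floor. With the looser flag of the scanner software, which asks for a signal that is positive and significant, it was called in 1 cell, WT cell 1. No fold is given for *Id4*, because both genotypes were at the floor.

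**Figure D1:**
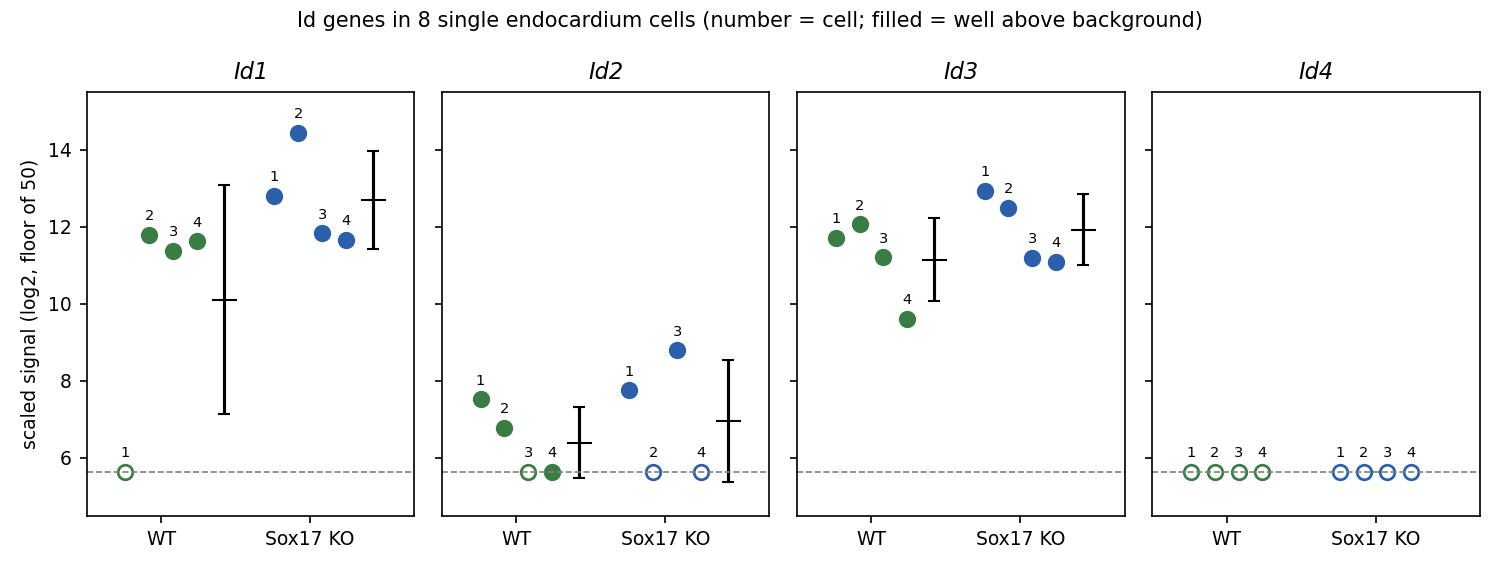
Scaled log2 signal (vertical axis, floor of 50 dashed) of the 4 *Id* genes in WT cells (green) and *Sox17* KO cells (blue), 1 point per cell with its number, filled where well above background; bars give the mean ± SD of the 4 cells. *Id1* at the floor in WT cell 1 sets the WT mean of 10.11, *Id3* is filled in all cells, and *Id4* is at the floor in all cells.

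Set against all genes, the difference of *Id1* lay past the 5-fold line among 3.41% of the 19142 genes detected in at least 1 cell that were at least 5-fold higher in KO cells, while 3.43% were at least 5-fold lower. The differences of *Id2* and *Id3* lay on the same side but in the body of the distribution. The median difference was 0.00 over the 26833 probes detected in at least 1 cell and 0.11 over the 7570 detected in all. The 26833 include probes under the floor in every cell, whose difference is set to 0.00 by the floor. *Id1*, *Id2* and *Id3* all had a higher mean in KO cells, yet none of them had all KO cells above all WT cells, a pattern seen in 1.1% of probes, while 0.242% had all KO cells below all WT cells.

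**Figure D2:**
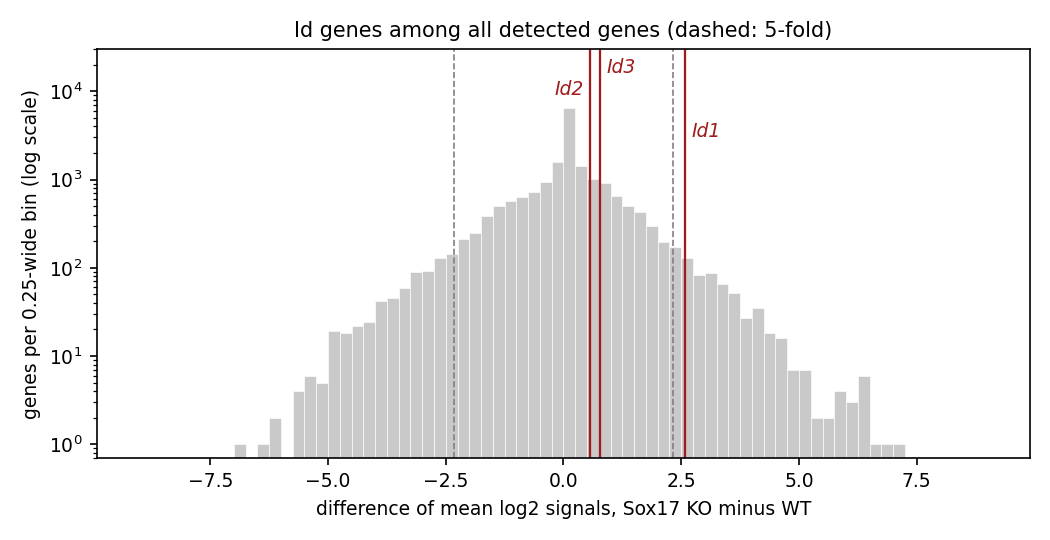
Number of genes (vertical axis, log scale) by difference of mean log2 signals, KO minus WT (horizontal axis), for the 19142 genes detected in at least 1 cell, with *Id1*, *Id2* and *Id3* as red lines and the 5-fold lines dashed. *Id1* at 2.58 lies just outside the right dashed line, and *Id2* at 0.56 and *Id3* at 0.78 lie well inside it.

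The size of the differences moved with the cells that entered. Leaving out each cell in turn gave 1.09 to 3.14 for *Id1*, -0.05 to 1.0 for *Id2* and 0.27 to 1.08 for *Id3*. The other ways of processing with all 8 cells gave 0.10 to 0.63 for *Id2* and 0.39 to 0.78 for *Id3*. The direction of *Id1* and *Id3* was the same in each of these settings, and that of *Id2* turned only without KO cell 3.

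**Figure D3:**
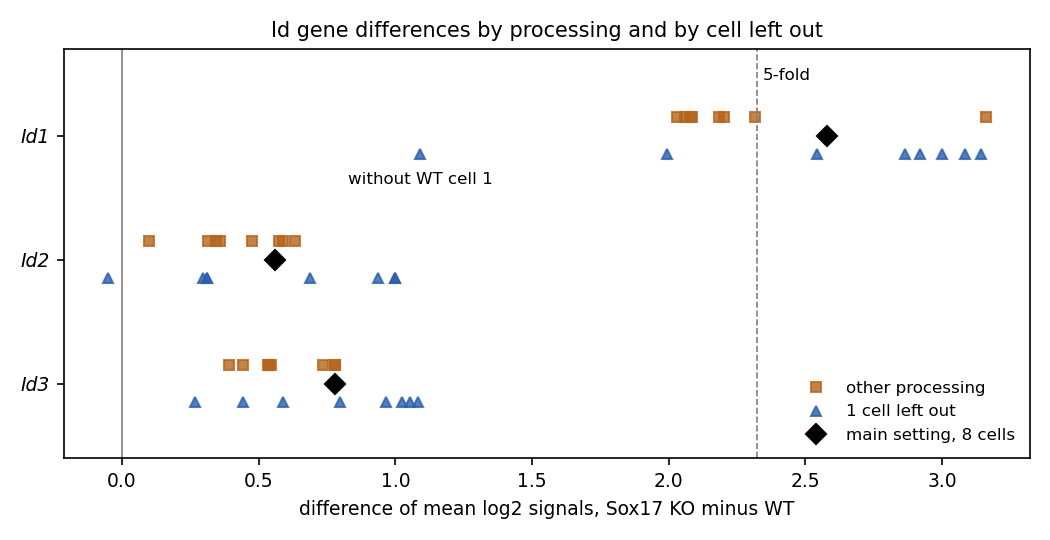
Difference of mean log2 signals, KO minus WT (horizontal axis), of *Id1*, *Id2* and *Id3* in the main setting (diamonds), under 8 other ways of processing (squares) and with 1 cell left out (triangles), with the 5-fold line dashed. The triangle at 1.09 is *Id1* without WT cell 1, and most squares of *Id1* lie to the left of the dashed line.

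Because *Id1* and *Id3* share regulators and partners, their ratio was also read within each array, where the scaling between arrays cancels. The log2 ratio of *Id1* to *Id3* was centred on the median of the 7 cells with both genes above the floor, so that only differences between cells can be read. It was -0.84, -0.41 and 1.44 in the WT cells numbered 2 to 4 and -0.70, 1.38, 0.08 and 0.00 in KO cells. Its mean was 0.06 over 3 WT cells and 0.19 over 4 KO cells, and both genotypes spanned nearly the same range. WT cell 4 and KO cell 2 had the most *Id1* for their *Id3*. Over all 8 cells, Pearson's r between the log2 signals was 0.19 (Spearman's rho 0.52) for *Id1* and *Id3*, -0.28 (rho 0.22) for *Id1* and *Id2*, and 0.31 (rho 0.33) for *Id2* and *Id3*. Without WT cell 1, r between *Id1* and *Id3* was 0.63 (rho 0.68). These values describe 8 cells that share their slide and amplification protocol and differ in depth, and carry no test.

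The genes whose log2 signals ran most like those of an *Id* gene over the 8 cells were taken from the RefSeq-named genes above the floor in at least 6 cells. For *Id1* they were *Psmd3* (r = 0.98), *Polr2e* (r = 0.96) and *Cdc37* (r = 0.96), among 52 of 2713 genes with r of at least 0.9. Without WT cell 1 these values were 0.92, 0.82 and 0.73. For *Id3* they were *Prpmp5* (r = 0.92), *Mogat2* (r = 0.87) and *Snrpf* (r = 0.87), and 1 gene reached 0.9. With 1 cell left out the lowest values were 0.81 and 0.67 (both without WT cell 4) and 0.81 (without KO cell 1). For *Id2* they were *Zfp691* (r = 0.93), *Hrc* (r = 0.91) and *Gm4736* (r = 0.91), the 3 genes of 2714 that reached 0.9. Without KO cell 3, their lowest case, r was 0.89, 0.84 and 0.87. *Id1*, with 1 cell at the floor, had many more such genes than *Id3*. No gene was named for more than 1 *Id* gene.

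The windows of 250 bases upstream of the start sites are given next for the members at both ends of detection, *Id3* in all 8 cells and *Id4* in none. They come from RefSeq on GRCm38.p6, which held 3 of the 4 genes, and are printed 5′ to 3′ on the strand of the gene, at chr4:136143572-136143821 for *Id3* (plus strand) and at chr13:48260866-48261115 for *Id4* (plus strand). The window of *Id1* is not used here. Capitals mark every match, on either strand, to CANNTG (an E-box), GGCGCC (a palindrome found in BMP response elements), CCAAT or TATAAA.
Id3: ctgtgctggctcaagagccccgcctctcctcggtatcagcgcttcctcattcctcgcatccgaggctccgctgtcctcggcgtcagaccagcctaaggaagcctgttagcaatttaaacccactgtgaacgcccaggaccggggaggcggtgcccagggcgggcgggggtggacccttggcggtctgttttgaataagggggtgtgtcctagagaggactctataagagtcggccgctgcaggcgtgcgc
Id4: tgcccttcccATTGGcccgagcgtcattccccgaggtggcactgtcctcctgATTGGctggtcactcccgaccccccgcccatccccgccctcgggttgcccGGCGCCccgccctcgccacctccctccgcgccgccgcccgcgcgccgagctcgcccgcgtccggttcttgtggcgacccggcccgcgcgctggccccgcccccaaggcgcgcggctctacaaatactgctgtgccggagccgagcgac
The window of *Id3* held none of the 4 motifs, and that of *Id4* held 1 GGCGCC and 2 CCAAT. The window of *Id2*, at chr12:25096093-25096342 on the minus strand, held 1 CANNTG, 1 GGCGCC and 3 CCAAT. No matches overlapped. Of all 32851 windows of this length, 66.2% held CANNTG, 9.59% GGCGCC, 33.8% CCAAT and 12.4% TATAAA. The share of G and C was 75.6% in *Id4* and 62.8% in both *Id2* and *Id3*, against a median of 52.4%. These matches are a description of letters, since no binding was measured in these cells.

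The partners, inducers and targets of Id proteins were read from 8 lists with 52 genes, all with a probe. Of these, 30 were detected in at least 1 cell and 6 in all cells. Among the 30, 3 genes were at least 5-fold higher in KO cells (*Tcf4*, *Lyl1* and *Smad6*), 2 were at least 5-fold lower (*Tcf3* and *Acvr1*) and 25 were neither. This was 16.7% of the detected genes, beside 6.84% of all detected genes in either direction. As the lists were chosen with earlier results of these data known, this share is a description only. With a floor of 200, 2 list genes were higher and 0 lower, and with the probes of a gene averaged, 2 and 1. With 1 cell left out, 2 to 4 were higher and 1 to 6 lower. *Lyl1* was the only gene of the lists whose genotypes did not overlap, with all KO cells above all WT cells, which 1.2% of all detected genes showed, against 0.261% with all KO cells below.

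The E proteins *Tcf3*, *Tcf4* and *Tcf12*, the direct partners of Id proteins, were each detected in at least 1 cell. *Tcf3*, which encodes E12 and E47, was detected in all 8 cells, with log2 signals of 10.30, 12.18, 5.64 and 10.88 in WT and 5.64, 5.64, 11.34 and 5.74 in KO cells. It was high in 3 WT cells and in KO cell 3, and the genotypes overlapped. The difference was -2.66 beside an SD between cells of 2.84. It was under 5-fold without WT cell 2 (-1.85), WT cell 4 (-2.29), KO cell 1 or 2 (-2.18 each) or KO cell 4 (-2.21), and it was -4.03 without WT cell 3 and -4.08 without KO cell 3. The mean of both *Tcf3* probes gave -1.83.

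*Tcf4*, which encodes E2-2, was not detected in any WT cell, and its log2 signal was 5.64, 5.64, 13.98 and 13.01 in KO cells. It was detected in 3 of the 4 KO cells and above the floor in KO cells 3 and 4. Its difference was 3.93 (15.2-fold) beside an SD between cells of 3.22. With all WT cells and also KO cells 1 and 2 at the floor, the floor sets this size. The difference was 5.52 with a floor of 10 and 2.93 with a floor of 200. The difference was 2.46 without KO cell 3, 2.78 without KO cell 4 and 5.23 without KO cell 1 or 2. The second probe of *Tcf4* was not detected in any cell, and the mean of both probes gave 1.96, which is under 5-fold. *Tcf12* was above the floor in WT cell 2 (6.81) and KO cell 4 (8.50), with a difference of 0.42 and an SD of 1.09.

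Of 13 tissue-specific bHLH factors, whose pairing with E proteins the Id proteins oppose, 4 were detected in at least 1 cell, and *Hand1*, *Twist2*, *Mesp1*, *Mesp2*, *Tcf15*, *Tcf21*, *Msc*, *Scx* and *Msgn1* in none. *Lyl1*, a factor of blood and endothelial precursors, had log2 signals of 6.92, 5.78, 7.77 and 5.64 in WT and 11.48, 9.21, 7.79 and 8.96 in KO cells. KO cell 3 lay only just above WT cell 3. The difference was 2.84 beside an SD between cells of 1.3, and it was 2.13, under 5-fold, without KO cell 1.

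*Tal1*, a close relative of *Lyl1* that makes the same precursors, was at 5.64, 5.64, 12.56 and 12.10 in WT and 6.68, 5.94, 13.48 and 5.64 in KO cells. It was bright in 2 WT cells and 1 KO cell, and its difference of -1.05 was less than the SD between cells of 3.79. *Hand2*, a cardiac factor, was at 5.64, 11.98, 5.64 and 12.08 in WT and 12.64, 12.97, 5.64 and 5.64 in KO cells, with a difference of 0.39 and an SD of 3.92. Each genotype thus had 2 cells with *Hand2* and 2 at the floor. *Twist1*, a mesenchymal factor, had a difference of 0.13 beside an SD of 2.23.

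BMP ligands, which induce *Id* genes from outside the cell, were seldom detected in these cells. Of 7 ligands, 3 were detected in at least 1 cell and none past 5-fold. *Bmp2* was above the floor in WT cell 3 alone (8.03), *Bmp6* in KO cell 4 alone (8.93), and *Bmp10* was detected in 3 cells but stayed under the floor. *Bmp4*, *Bmp5*, *Bmp7* and *Gdf2* were not detected in any cell.

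BMP receptors were detected for 6 of 8 genes, while *Bmpr1b* and *Bmpr2* were detected in no cell. *Acvr1*, a type I receptor, had log2 signals of 11.45, 5.64, 12.87 and 12.36 in WT and 5.64, 5.64, 5.64 and 12.77 in KO cells. It was high in 3 WT cells and in KO cell 4, and the difference was -3.15 beside an SD between cells of 3.46. The difference was -4.80 without WT cell 2 and -4.94 without KO cell 4, -2.39 without WT cell 3 and -2.56 without any 1 of the remaining cells but WT cell 1 (-2.86), and the second probe of *Acvr1* gave -2.55.

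*Eng* and *Acvrl1* encode parts of the endothelial receptor for circulating BMP ligands, and both were detected in all 8 cells. *Eng* had log2 signals of 14.30, 12.06, 11.96 and 12.97 in WT and 10.28, 11.87, 13.20 and 7.14 in KO cells. Its difference of -2.20 was just above the SD between cells of 2.0, with KO cell 3 inside the WT range. *Acvrl1* was high in WT cell 4 alone (13.78) and at 5.64 to 8.13 in the other 7 cells, with a difference of -1.54 and an SD of 2.84. The remaining receptors, *Bmpr1a*, *Acvr2a* and *Acvr2b*, had differences of 0.78, 1.04 and 0.78, each less than its SD between cells (2.10, 1.47 and 3.66).

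Of 6 Smads, which carry the BMP signal to the *Id* promoters or block it, 5 were detected in at least 1 cell and *Smad9* in none. *Smad6*, an inhibitory Smad that is itself induced by BMP signaling, was at 5.64, 5.64, 11.80 and 5.64 in WT and 10.97, 11.58, 12.32 and 10.93 in KO cells. It was at the floor in 3 of 4 WT cells and above 10.9 in every KO cell, while WT cell 3 lay inside the KO range. In WT cells 1 and 2 *Smad6* was detected under the floor, with scaled signals of 48.8 and 8.71, and in WT cell 4 it was not detected. The difference was 4.27 (19.3-fold) beside an SD between cells of 2.23, from 3.76 to 5.81 with 1 cell left out. With 3 WT cells at the floor, the floor sets this size, and the difference was 5.44 with a floor of 10 and 2.77 with a floor of 200. *Smad7*, the other inhibitory Smad, was above the floor in KO cells 2 and 3 only, with a difference of 1.0 and an SD of 1.40. *Smad1*, *Smad5* and *Smad4*, which act in the forward direction, had differences of -0.38, -1.26 and -1.14, each less than its SD between cells. The second probe of *Smad4* had the opposite sign, with a difference of 1.63 and an SD of 1.76. The second probe of *Smad5* gave -0.78, and the other probes of *Smad1* stayed under the floor.

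Of 5 secreted BMP antagonists, *Chrd* was detected in all 8 cells at a signal close to the floor (difference 0.05), *Bmper* only in KO cell 4 (12.13), and *Nog*, *Grem1* and *Fst* in none. All 4 genes of Id protein stability were detected. *Cops5*, a signalosome subunit known to act on Id proteins, had the floor value in WT cell 1 and ran from 11.86 to 14.47 elsewhere, with a difference of 1.94 and an SD between cells of 2.72. *Cops5* and *Id1* thus had their only floor value in the same cell. That cell lacked 10.4% of the probes detected in the other 7 cells. The endothelial marker *Tie1* also had its only floor value there, while *Eng* had its highest value of the 8 cells there (14.30). The part of lost signal in these floor values was not tested. *Usp1*, which removes ubiquitin from Id proteins, *Fzr1* and *Smurf2*, which help to mark them for decay, had differences of -1.70, -1.71 and -1.23, each less than its SD between cells (2.33, 3.29 and 2.61). The second probe of *Fzr1* gave -1.38. The other probes of *Smurf2* gave 0.41 and, with every cell at the floor, 0.0.

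The last list held cell cycle inhibitors and *Thbs1*, genes that Id proteins repress or hold back by blocking E proteins. *Cdkn1c*, which encodes p57 and is imprinted, was bright in all cells, from 15.63 in KO cell 2 to 17.92 in KO cell 1, with a difference of 0.20 beside an SD between cells of 0.77. *Cdkn1b* was detected in 4 cells but under the floor, *Thbs1* was above the floor in WT cell 3 alone (7.52), and *Cdkn1a*, *Cdkn2a* and *Cdkn2b* were not detected in any cell. None of the 6 genes was 5-fold apart between genotypes.

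**Figure D4:**
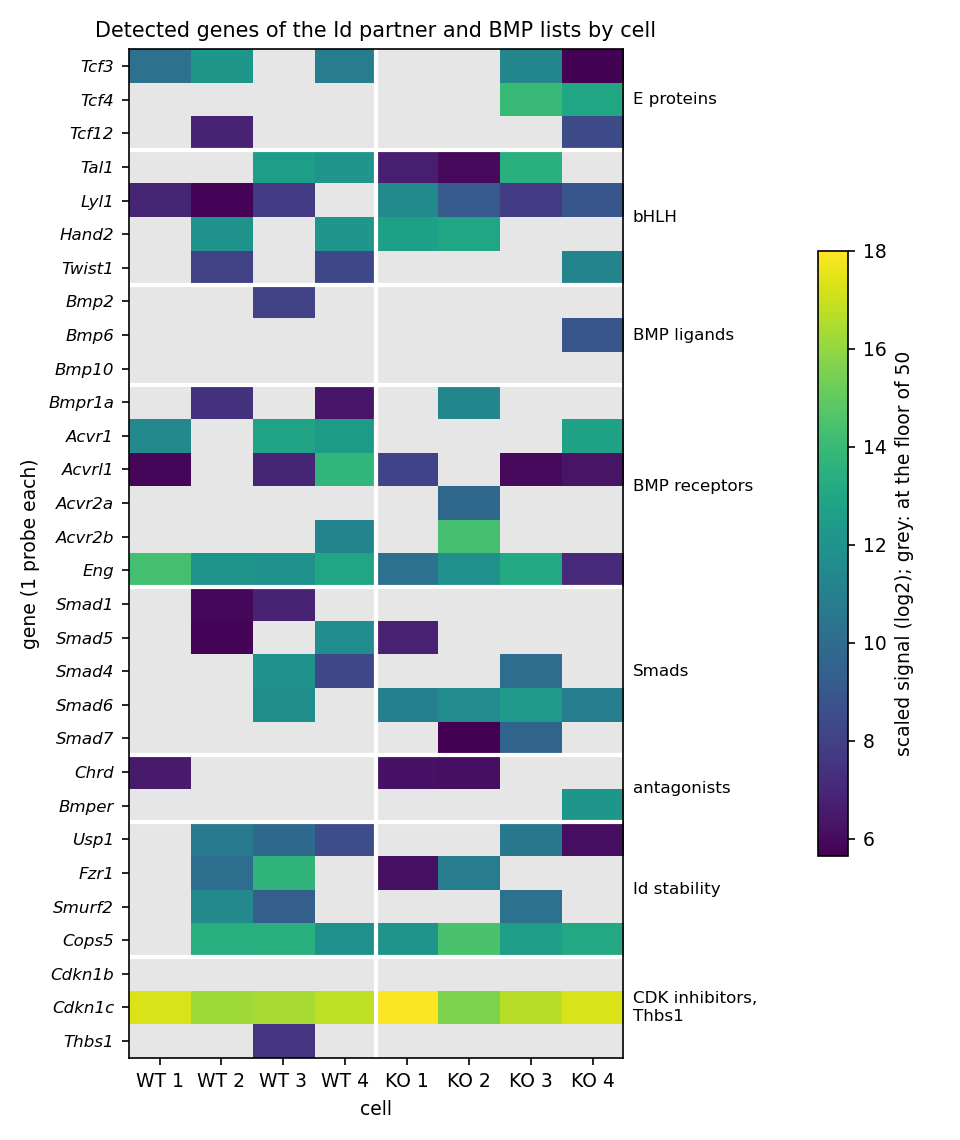
Scaled log2 signal (colour, grey at the floor of 50) of the 30 detected genes of the 8 lists (rows, 1 probe each) in the 8 cells (columns, WT left and KO right). Colours are to be compared along a row only; *Smad6* is at the floor in 3 WT cells and in no KO cell, and *Cdkn1c* is bright in every cell.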

How the data were processed

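Expression was measured in 8 single endocardium cells, 4 WT and 4 *Sox17* KO, on 1-colour Agilent arrays (design 028005, probes placed on mm9, NCBI 37) with 1 cell per array. The intensity values deposited by the authors were background-subtracted and detrended by Agilent Feature Extraction 12.0.2.2 and not normalized between arrays. Flags of that software, also deposited, told which spots were outliers, saturated or well above background. Control and outlier spots were left out, no spot was saturated, and 386 of 55681 probes without a usable spot on every array were dropped. A probe was called detected when over 50% of its usable spots were well above background. Arrays were brought to a common 50th percentile over the 7570 probes detected on all of them (factors of 0.60 to 2.36), and log2 was taken after raising lower values to 50. Names came through RefSeq (GRCm38.p6, used for names and promoter windows only) for 28131 probes. Where a gene had several probes, the brightest over all arrays stands for it.

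The *Id* genes, the lists and the alternatives were chosen with earlier results of these data known. Genes named are the *Id* genes, genes of the lists at least 5-fold apart or whose role was needed, and the 3 genes most like each *Id* gene detected above the floor in at least 3 cells. A gene first chosen for the lists was left out of them and is not reported here. No label names embryos, so no test across cells was made. The depth, from 11370 to 18175 detected probes per array, and the number of arrays limit the precision. Python 3.11.15, numpy 2.4.6, pandas 2.3.3, scipy 1.17.1, matplotlib 3.10.9, R 4.3.3 and limma 3.58.1 (for normexp with an offset of 50) were used. Quantile normalization was done in Python. The scaling, floor and difference were tested on simulated data made only from probes detected on all arrays. The simulated noise was less than the SD between cells of the detected *Id* genes, and signal lost in single cells was not simulated. Alternatives were the 75th percentile, all probes for the percentile, the floor set before scaling, quantile normalization, normexp, floors of 10 and 200, another detection flag, averaging the probes of a gene, restriction to probes detected on all arrays, and leaving out each cell.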

Additional observations from a re-analysis of the deposited data

Results flagged for a closer look

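A cell was picked out where its gap to the nearest of the other cells of its genotype, as a share of the whole range of the 4 cells, was above Dixon's critical value for 4 values. Of 29 groups of 4 cells looked at, 8 passed. Each of these 8 groups had at least 1 cell at the floor. The rate of 1 in 20 behind Dixon's value does not carry over to values set to a floor, so that no number expected by chance is given. *Id1* in WT cells had WT cell 1 apart, at the floor, with a gap share of 0.932. In KO cells the share was 0.984 for *Tcf3* (KO cell 3, 11.34), 0.868 for *Tal1* (KO cell 3, 13.48) and 1.0 for *Acvr1* (KO cell 4, 12.77). In WT cells it was 1.0 for *Smad6* (WT cell 3, 11.80) and 0.844 for *Acvrl1* (WT cell 4, 13.78). *Tcf12* had a share of 1.0 in both genotypes, for WT cell 2 (6.81) and KO cell 4 (8.50). In 4 of the 8 groups the other 3 cells were all at the floor, which makes the share 1.0 whatever the value of the remaining cell.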

How the results depend on the processing

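*Id1* and *Id3* stayed higher in KO cells under all 8 other ways of processing and with each cell left out, and *Id2* did so except without KO cell 3. Their differences moved by less than the SD between cells, with ranges of 1.09 to 3.14 for *Id1*, -0.05 to 1.0 for *Id2* and 0.27 to 1.08 for *Id3* with 1 cell left out. Under the flag for positive and significant signal, *Id4* was detected in 1 cell in place of 0 and *Id1* in 8 in place of 7, while the other settings left the number of cells with each *Id* gene as it was. The 760 probes at least 5-fold higher in KO cells became 1439 with a floor of 10, 370 with a floor of 200 and 173 over probes detected on all arrays, and 646 to 1115 with 1 cell left out. The 765 lower probes became 1485, 271 and 128 under the same settings, and 788 to 1228 with 1 cell left out (1228 without WT cell 1). The 2 list genes at least 5-fold lower became 0 with a floor of 200, 1 with normexp and 1 when the probes of a gene were averaged, and 1 to 6 with 1 cell left out (6 without KO cell 3, 4 without WT cell 1, and 1 without KO cell 1 or KO cell 4). The 3 higher list genes ranged from 2 to 4. The call of at least 5-fold ended with a floor of 200 for *Lyl1* (1.69), *Acvr1* (-2.15) and *Tcf3* (-1.69), and with normexp for *Tcf3* (-2.04). A floor sets the size of a difference where 1 genotype lies at it, while the cause of the other shifts was not tested. No paired analysis was possible because no label pairs a WT cell with a KO cell, and no test was made. Averaging probes changes nothing for the *Id* genes, which have 1 probe each.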
